A study of Mus musculus with 8 samples.

Results

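Markers of the crypt stem cell centred on Lgr5 were followed in mouse small intestinal organoids grown with either or both of a pair of small molecules. The set held 10 genes (Lgr5, Ascl2, Smoc2, Tnfrsf19, Cdca7, Slc12a2, Lrig1, Hopx, Bmi1 and Gkn3), found by matching the RefSeq accession of each array probe to the gene symbol. They were covered by 12 of the 41174 probes, with 2 probes each for Smoc2 and Bmi1, and the brightest probe of a gene gave its main value. All 10 were among the 19240 genes tested.

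The organoids are self-renewing epithelial cultures in Matrigel that contain crypt stem cells and the cell types they give rise to. Two-colour arrays compared 4 conditions, each held for 6 days: 3 µM CHIR99021, 1 mM valproic acid (VPA), both compounds at those doses (CHIR99021+VPA), and control. Every condition was measured in 2 wild-type lines that had been established independently, giving 2 arrays per condition and 8 in all. Cy5 carried the sample and Cy3 carried control RNA of the same line, so that a control array compared control RNA with control RNA. The strain, sex and age of the mice are not given in the labels, and all groups share the same wild-type genotype. CHIR99021 blocks the kinase GSK3, which otherwise marks beta-catenin for destruction, and VPA inhibits histone deacetylases.

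Crypt base columnar stem cells sit between Paneth cells at the bottom of the intestinal crypt, and their state depends on Wnt signalling. Lgr5 binds R-spondins, which protect Wnt receptors from removal at the cell surface. Ascl2, Smoc2 and Tnfrsf19 are used beside Lgr5 as markers of these cells. Lrig1, Hopx and Bmi1 have been used to mark slower cycling or reserve cells above them, although their transcripts are also found in Lgr5-positive cells.

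The values below are log2 ratios of Cy5 over Cy3 after background correction and within-array normalisation. A difference is the mean ratio of one condition minus that of another, ± its standard error, with 2 arrays per group. Adjusted p-values come from limma's moderated test over all 19240 genes with Benjamini-Hochberg adjustment, and a gene was called at an adjusted p under 0.05. The 2 arrays of a group come from different lines on different slides, so the error holds differences of line, slide and measurement together. No line was measured again in the same condition, and the number of arrays limits the precision. Cy5 signal was well above background on all 8 arrays for 9 of the 10 members, the exception being Tnfrsf19. Between 60.6% and 64.6% of all spots on an array reached that level, and none of the spots was saturated. All 6 epithelial marker genes examined, among them Epcam and Cdh1, were above background on every array. Their levels were not constant. The keratin gene Krt8 fell with CHIR99021, and Krt8 and Krt18 fell with VPA. With both, Krt8, Krt18 and Krt19 fell while Cdh1 rose. These genes were named after their values were seen. Of the 6 epithelial genes, 4 were positive with CHIR99021 (median 0.05), 2 with VPA (median -0.35) and 3 with both (median -0.32). Their summed Cy5 level ran from 334882 to 344385 with CHIR99021, from 279178 to 308634 with VPA, from 256539 to 290766 with both and from 375385 to 393240 in control, and their part in the values of the members was not tested.

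Promoter windows are shown for Tnfrsf19 and Gkn3, the members with the greatest called changes in each direction. The windows are those of RefSeq on GRCm38.p6, 250 bases before to 50 after a gene start, on the strand of the gene, and 7 of the 10 members had 9 such windows. Capitals mark matches on either strand to a TCF/LEF core (CTTTGA or CTTTGT), the element read by the DNA-binding partners of beta-catenin, or to an E-box (CANNTG), the element read by basic helix-loop-helix factors such as Ascl2.
Tnfrsf19, chr14:61037938-61038237, minus strand: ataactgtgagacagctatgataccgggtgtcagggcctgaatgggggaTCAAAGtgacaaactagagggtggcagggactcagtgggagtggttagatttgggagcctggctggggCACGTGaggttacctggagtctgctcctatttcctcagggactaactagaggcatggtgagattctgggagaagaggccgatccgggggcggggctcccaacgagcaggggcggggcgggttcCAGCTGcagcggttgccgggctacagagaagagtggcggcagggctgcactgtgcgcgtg
Tnfrsf19, chr14:61046806-61047105, minus strand: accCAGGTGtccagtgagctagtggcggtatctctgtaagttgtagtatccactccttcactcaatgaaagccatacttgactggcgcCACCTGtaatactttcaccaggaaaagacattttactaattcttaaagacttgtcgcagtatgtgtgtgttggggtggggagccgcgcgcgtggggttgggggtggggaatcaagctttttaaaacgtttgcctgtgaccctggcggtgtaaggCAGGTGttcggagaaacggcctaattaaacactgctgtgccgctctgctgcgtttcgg
Gkn3, chr6:87388886-87389185, minus strand: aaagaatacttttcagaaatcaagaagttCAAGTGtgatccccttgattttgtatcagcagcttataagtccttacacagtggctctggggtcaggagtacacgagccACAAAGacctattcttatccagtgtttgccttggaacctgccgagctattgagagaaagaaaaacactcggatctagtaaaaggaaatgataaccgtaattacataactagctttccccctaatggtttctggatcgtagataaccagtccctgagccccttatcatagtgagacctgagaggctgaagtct
The downstream Tnfrsf19 window held 1 TCF/LEF core, TCAAAG, at position -201 from the gene start, and 2 E-boxes, while the upstream one held 3 E-boxes and no core. The Gkn3 window held 1 core, ACAAAG, at position -142, and 1 E-box. Such matches are common: of 32851 windows of 300 bases, 31.2% held a TCF/LEF core and 72.3% held an E-box. Neither element was found in the windows of Cdca7 and Lrig1, and the other windows, of Ascl2, Hopx and Bmi1, held 1 or 2 E-boxes each.

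With CHIR99021+VPA, Tnfrsf19 and Hopx rose and Gkn3 fell against control, so that 3 of the 10 members were called, beside 15.6% of all genes. With VPA alone Gkn3 fell and was the 1 member called, beside 10.9% of all genes. With CHIR99021 alone 0 members were called by limma, beside 1.12% of all genes, while 8 of 10 values were positive. At an unadjusted p under 0.05 there were 6 of 10 members with CHIR99021, 3 with VPA and 5 with both, beside 12.8%, 26% and 29.7% of all genes. A fit on the authors' series table called 1 member for CHIR99021, beside 209 of the 13669 genes tested there. A fit of only the 2 groups called 2 members, beside 1088 of 19240 genes. The median difference of the members was 0.38 with CHIR99021, -0.12 with VPA and 0.32 with both, where the medians of all genes were 0.0082, -0.00042 and 0.0064.

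**Figure D1:**
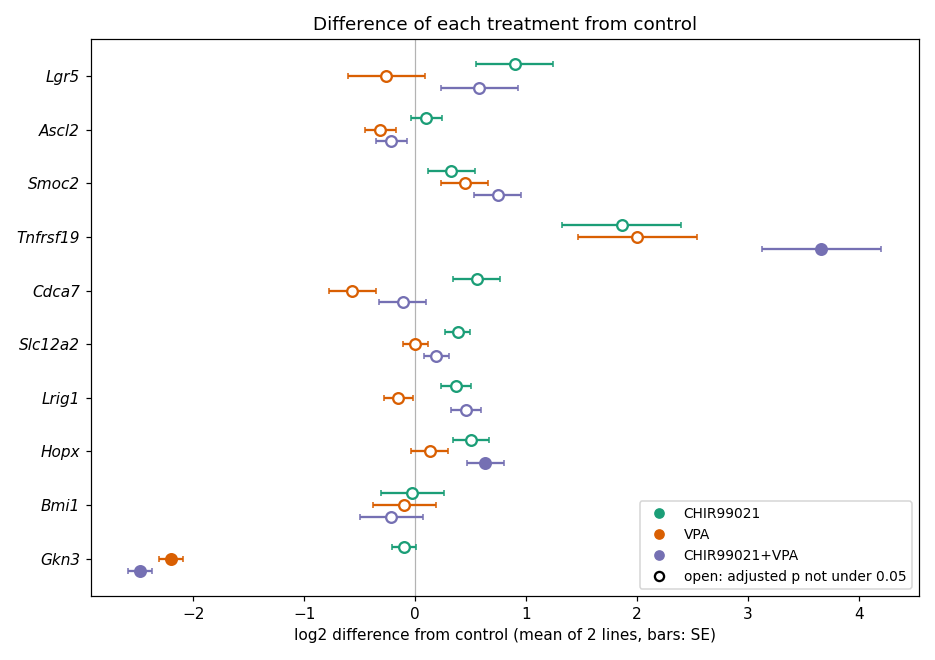
Difference of each member from control (x axis, log2 units, mean of 2 lines, bars showing the standard error) for CHIR99021, VPA and both compounds, with filled points where the adjusted p was under 0.05. Filled points are Gkn3 at -2.20 with VPA and -2.48 with both, and Tnfrsf19 at 3.66 and Hopx at 0.63 with both.

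Lgr5, a leucine-rich repeat receptor of R-spondins, was highest with CHIR99021. Its ratio was 1.28 in line 1 and 0.74 in line 2 with CHIR99021, 0.24 and -0.52 with VPA, 0.37 and 1.02 with both, and 0.36 and -0.13 in control. The order of the means was CHIR99021, both, control and VPA. CHIR99021 overlapped with the combination and control overlapped with VPA, while both CHIR99021 arrays lay above both control arrays. The difference from control was 0.90 ± 0.35 with CHIR99021, or 1.86-fold (95% interval 0.07 to 1.72, unadjusted p = 0.0371, adjusted p = 0.344 by limma), at 0.92 in line 1 and 0.87 in line 2. With VPA it was -0.26 ± 0.35 (adjusted p = 0.705 by limma). The combination gave 0.58 ± 0.35 (95% interval -0.25 to 1.403, adjusted p = 0.328 by limma), and here the lines parted, with 0.01 in line 1 and 1.14 in line 2.

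The unadjusted brightness of the Lgr5 probe showed the same split between the lines. In line 1 its Cy5 spot minus local background was 3936 intensity units with CHIR99021, 2019 with VPA, 2351.5 with both and 2127 in control. In line 2 it was 7791 with CHIR99021, 2855.5 with VPA, 9638 with both and 4680 in control. The combination was thus the brightest array of line 2 and close to control in line 1. The control RNA in Cy3 varied little between the arrays of a line, from 766 to 802 in line 1 and from 1700 to 1825.5 in line 2. The SD of its 4 normalised Cy3 readings was 0.07 in line 1 and 0.04 in line 2 on the log2 scale.

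The 2 control arrays themselves read differently for Lgr5. Their ratios differed by 0.49, a gap greater than that of 99.6% of the genes tested, where the median gap was 0.08 and the 95th percentile 0.26. Each of these ratios compares control RNA with control RNA of the same line, so the gap does not measure a difference in Lgr5 level between the lines. Ascl2 had the next widest gap of the members, 0.33, greater than that of 97.9% of genes. Both enter the control mean and the error of every difference from control.

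Proliferation markers had the signs of Lgr5 and Cdca7 with the single compounds. Of 8 such genes tested, 8 had positive values with CHIR99021 (median 0.31) and 8 had negative values with VPA (median -0.37, 1 called as lower, the mitotic cyclin Ccnb1 at -0.56 ± 0.12, named after its value was seen), while 4 were positive with both (median -0.04). Their summed Cy5 level ranged from 91303 to 94824 with CHIR99021, from 59535 to 74414 with VPA, from 74864 to 82533 with both and from 74965 to 78605 in control. All 8 were above background on every array, and their part in the values of Lgr5 and Cdca7 was not tested. The 1 call with VPA stood beside 10.9% of all genes called.

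**Figure D2:**
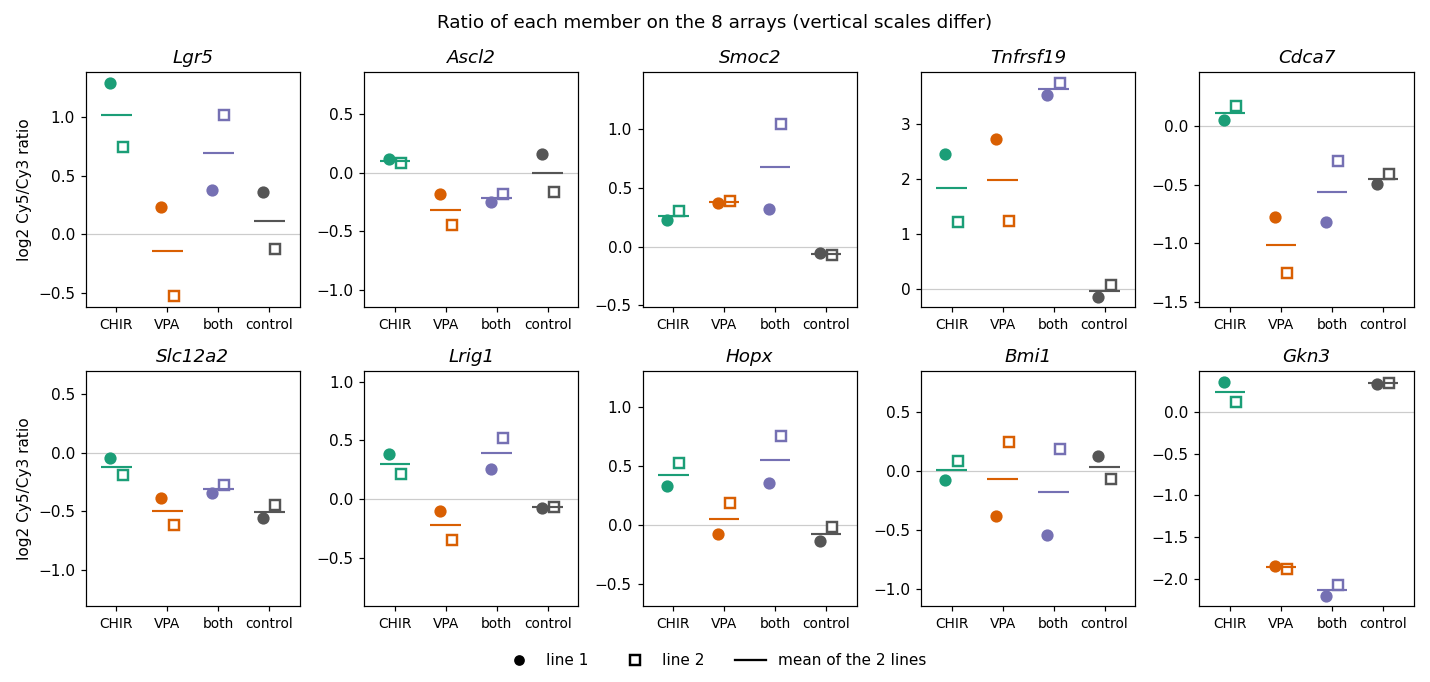
Log2 Cy5/Cy3 ratio (y axes, scales differ) of each member on the 8 arrays, by condition, with filled circles for line 1, open squares for line 2 and bars for the mean of the 2 lines. Tnfrsf19 lies at 3.53 and 3.74 with both compounds and Gkn3 at -2.20 and -2.08, apart from control at -0.13 and 0.08 and at 0.34 and 0.34, while the Bmi1 values of all conditions overlap.

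Tnfrsf19, also called Troy, is a receptor of the tumour necrosis factor superfamily and a Wnt target gene of crypt base cells. Ratios were 2.45 in line 1 and 1.23 in line 2 with CHIR99021, 2.72 and 1.23 with VPA, 3.53 and 3.74 with both, and -0.13 and 0.08 in control. The combination was highest, the single compounds overlapped with each other, and all 6 treated arrays lay above control. With both compounds it rose by 3.66 ± 0.54, or 12.7-fold, on the scale with an offset of 50 (adjusted p = 0.00709 by limma). The call was lost without the control array of line 1 (3.56, adjusted p = 0.0703) or without that of line 2 (3.77, adjusted p = 0.0612). The single compounds gave 1.86 ± 0.54 for CHIR99021 (adjusted p = 0.210 by limma) and 2.00 ± 0.54 for VPA (adjusted p = 0.0624 by limma). With the organoid line as a block VPA passed (adjusted p = 0.0258).

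The Tnfrsf19 probe was dim in control, which bears on the size of these values. Its Cy5 spot minus background was 920 with CHIR99021, 1192 with VPA, 2782.5 with both and 89 in control of line 1. In line 2 it was 180.5 with CHIR99021, 194 with VPA, 2251.5 with both and 20 in control, the only array on which Cy5 was not well above background. Of the 2 control arrays, 1 thus measured the gene, and the size of the rise in line 2 has no firm base. The control RNA in Cy3 was well above background on 4 of 4 arrays of line 1 and on 1 of 4 arrays of line 2. With both compounds the values per line were 3.66 in line 1 and 3.67 in line 2 after the offset of 50 intensity units was added, but 4.72 in line 1 and 5.58 in line 2 with the scanner software's own ratios, which lack it. With those ratios the differences were 3.79 with CHIR99021 (adjusted p = 0.0601 by limma), 4.14 with VPA (adjusted p = 0.0119) and 5.15 with both (adjusted p = 0.00449). With outlier spots kept in the background model the CHIR99021 value was 0.93. On the line 1 CHIR99021 array that model gave a noise SD of 192 in Cy5 and 905 in Cy3. Without outlier spots these were 1.14 and 1.02.

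**Figure D3:**
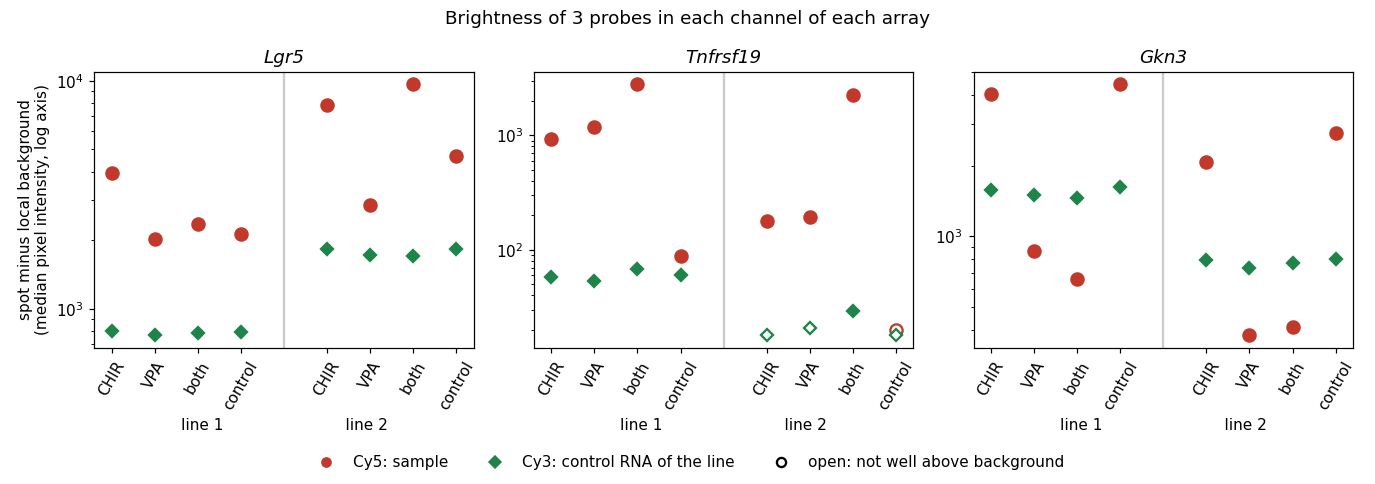
Spot minus local background (y axes, median pixel intensity, log scale) of the Lgr5, Tnfrsf19 and Gkn3 probes on each array, with circles for the sample in Cy5, diamonds for control RNA of the line in Cy3, and open symbols where the signal was not well above background. Tnfrsf19 reached 2782.5 and 2251.5 in Cy5 with both compounds, against 89 and 20 in control, and Gkn3 fell to 659.5 and 413, against 4439.5 and 2760.5 in control.

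Tnfrsf19 is also transcribed in connective tissue, so mesenchymal markers are given beside it. Of 7 such genes, 4 were tested, and 1 of them, the collagen gene Col1a1 (named after its values were seen), rose by 0.79 ± 0.14 with VPA (adjusted p = 0.0217 by limma) and by 1.01 ± 0.14 with both (adjusted p = 0.00666). The medians of the 4 genes were -0.03 with CHIR99021, 0.39 with VPA and 0.62 with both. Of the 4, 2 were positive and 2 negative with CHIR99021 and with VPA, and 3 were positive and 1 negative with both. Over all genes 10.9% were called with VPA and 15.6% with both. The summed Cy5 level of all 7 genes, tested or not, ranged from 9023 to 9770 with CHIR99021 and from 7436 to 8927 with VPA. It ranged from 11414 to 13336 with both and from 7435 to 9802 in control. The fibroblast gene Dcn was not above background on any array. The part of these genes in the Tnfrsf19 values was not tested.

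Ascl2, a basic helix-loop-helix transcription factor that maintains the crypt stem cell programme, was not called in any comparison. Its ratios were 0.11 in line 1 and 0.09 in line 2 with CHIR99021, -0.18 and -0.45 with VPA, -0.25 and -0.18 with both, and 0.16 and -0.17 in control. The differences from control were 0.10 ± 0.14 (adjusted p = 0.857), -0.31 ± 0.14 (adjusted p = 0.221) and -0.22 ± 0.14 (adjusted p = 0.372) by limma for CHIR99021, VPA and both. CHIR99021 overlapped with control, and VPA overlapped with the combination. Every array with VPA, alone or in the combination, lay below both control arrays, the nearest at -0.18 against -0.17. With the scanner software's ratios the difference from control was -0.51 with VPA and -0.30 with both. The 95% interval of the difference ran from -0.65 to 0.02 with VPA and from -0.55 to 0.12 with both compounds.

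Smoc2, a secreted calcium-binding matrix protein of the stem cell signature, was above control on all 6 treated arrays with its main probe. Ratios were 0.22 in line 1 and 0.31 in line 2 with CHIR99021, 0.37 and 0.39 with VPA, 0.32 and 1.04 with both, and -0.06 and -0.07 in control. The combination was highest on average and overlapped with VPA. Its difference from control with both compounds, 0.74 ± 0.21, missed the threshold (adjusted p = 0.0612 by limma) and passed with the line as a block (adjusted p = 0.0292). With CHIR99021 it was 0.33 ± 0.21 (adjusted p = 0.615 by limma) and with VPA 0.45 ± 0.21 (adjusted p = 0.244 by limma). The second Smoc2 probe gave 0.37 with CHIR99021 and 0.61 with both, near the first, but 0.09 with VPA. Its value with both was 0.20 in line 1 and 1.02 in line 2. On that probe the line 1 ratios with VPA (-0.27) and both (-0.17) lay below the line 2 control (-0.15). They were above the control of their own line (-0.37). On the CHIR99021 and VPA arrays of line 1 the scanner software marked the local background of the first probe as an outlier.

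Cdca7, a cell division gene and Myc target that acts in chromatin remodelling, had opposite signs with the single compounds. The ratios were 0.05 in line 1 and 0.17 in line 2 with CHIR99021, -0.78 and -1.25 with VPA, -0.82 and -0.30 with both, and -0.49 and -0.41 in control. CHIR99021 was highest and apart from control, control overlapped with the combination, and the combination overlapped with VPA. The differences from control, 0.56 ± 0.21 with CHIR99021 (adjusted p = 0.339 by limma), -0.57 ± 0.21 with VPA (adjusted p = 0.149) and -0.11 ± 0.21 with both (adjusted p = 0.782), did not pass. Fitted on only the groups compared, the CHIR99021 value passed (adjusted p = 0.0264 by limma). On the CHIR99021 array of line 1 the scanner software marked the local background of its probe as an outlier.

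Slc12a2, the sodium, potassium and chloride cotransporter of the crypt cell's basolateral membrane, was slightly above control with CHIR99021. Its ratios were -0.05 in line 1 and -0.19 in line 2 with CHIR99021, -0.38 and -0.62 with VPA, -0.35 and -0.28 with both, and -0.55 and -0.45 in control. VPA overlapped with control, and the combination lay between CHIR99021 and control. The differences from control were 0.38 ± 0.11 with CHIR99021 (adjusted p = 0.215 by limma), 0.0019 ± 0.11 with VPA (adjusted p = 0.996) and 0.19 ± 0.11 with both (adjusted p = 0.329). Its control ratios were as far below 0 as those with VPA, so a positive difference from control goes with a ratio below 0.

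Lrig1, a transmembrane protein that restrains ErbB receptors, was above control with CHIR99021 and with both compounds in each line. Ratios read 0.38 in line 1 and 0.22 in line 2 with CHIR99021, -0.10 and -0.34 with VPA, 0.26 and 0.52 with both, and -0.07 and -0.07 in control. The combination and CHIR99021 overlapped, and VPA was lowest. The difference from control with both compounds, 0.46 ± 0.13, narrowly missed the threshold (adjusted p = 0.0634 by limma) and passed with the line as a block (adjusted p = 0.0479). With CHIR99021 it was 0.37 ± 0.13 (adjusted p = 0.311) and with VPA -0.15 ± 0.13 (adjusted p = 0.547 by limma).

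Hopx, an atypical homeodomain protein that does not bind DNA, rose modestly with both compounds. Its ratios were 0.33 in line 1 and 0.52 in line 2 with CHIR99021, -0.08 and 0.18 with VPA, 0.35 and 0.75 with both, and -0.14 and -0.02 in control. The combination overlapped with CHIR99021, both stood above control, and VPA overlapped with control. With both compounds it rose by 0.63 ± 0.16, or 1.55-fold (adjusted p = 0.0471 by limma). The call was near the threshold. It was lost with the scanner software's ratio, with no filter on dim probes, with only the 2 groups fitted (adjusted p = 0.0786, 0.0559 and 0.0790 by limma), with outlier spots kept in the background model (0.63, adjusted p = 0.0573), with median centring in place of loess (0.70, adjusted p = 0.137), and without either control array (adjusted p = 0.249 and 0.170). It was also lost without either CHIR99021 array (adjusted p = 0.0754 each by limma) or without the line 2 array of the combination (0.43, adjusted p = 0.127). CHIR99021 alone gave 0.50 ± 0.16 (adjusted p = 0.263) and VPA 0.13 ± 0.16 (adjusted p = 0.684 by limma).

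Bmi1, a component of Polycomb repressive complex 1, showed no change that the lines shared. The ratios were -0.07 in line 1 and 0.09 in line 2 with CHIR99021, -0.38 and 0.25 with VPA, -0.55 and 0.18 with both, and 0.13 and -0.07 in control. Every condition overlapped with every other. The differences from control ran from -0.21 ± 0.28 with both to -0.03 ± 0.28 with CHIR99021, with adjusted p-values from 0.678 to 0.988 by limma. Line 1 was below and line 2 above control under all 3 treatments. The second Bmi1 probe had the same split, with -0.42 in line 1 and 0.44 in line 2 for VPA, and -0.47 and 0.10 for both.

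Gkn3, a secreted protein of the gastrokine family that is known from the stomach and from intestinal stem cell signatures, fell with VPA whether or not CHIR99021 was present. The ratio was 0.36 in line 1 and 0.12 in line 2 with CHIR99021, -1.85 and -1.88 with VPA, -2.20 and -2.08 with both, and 0.34 and 0.34 in control. CHIR99021 overlapped with control, and the 4 arrays with VPA lay far below. Against control it fell by 2.20 ± 0.11 with VPA, which is 4.6-fold lower (adjusted p = 0.000364 by limma). With both it fell by 2.48 ± 0.11, which is 5.57-fold lower (adjusted p = 0.000224 by limma). With CHIR99021 alone it was -0.10 ± 0.11 (adjusted p = 0.809 by limma). In bulk RNA, fewer cells of a type and less RNA per cell cannot be told apart.

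The Gkn3 probe was well above background in both dyes on every array. Its Cy5 spot minus background was 4047 with CHIR99021, 870 with VPA, 659.5 with both and 4439.5 in control of line 1, and 2081.5, 380, 413 and 2760.5 in line 2. The fall was alike in the lines, at -2.18 and -2.22 with VPA and -2.54 and -2.42 with both. Leaving out any 1 array kept it between -2.22 and -2.19 with VPA and between -2.54 and -2.41 with both, with adjusted p-values of at most 0.0153 and 0.0103 by limma.

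Some markers of secretory cells fell in the comparisons in which Gkn3 fell. Of 9 enteroendocrine genes 5 were tested, of which 2 fell with VPA (5 of 5 negative, median -2.48) and 2 with both (4 of 5 negative, median -2.73), while 0 were called with CHIR99021 by limma, where 0 of 5 had an unadjusted p under 0.05 (median -0.20). The 2 that fell, named after their values were seen, were Chgb, a protein of hormone granules, at -3.08 ± 0.36 with VPA and -4.45 ± 0.36 with both, and Tph1, an enzyme of serotonin synthesis, at -2.00 ± 0.25 and -2.06 ± 0.25. The summed Cy5 level of the list ranged from 6261 to 112062 with CHIR99021, from 1857 to 16720 with VPA, from 1877 to 6685 with both and from 5924 to 128309 in control. Of 7 goblet markers tested, 5 fell with VPA and 6 with both, with medians of -1.28 and -2.66, and 0 were called with CHIR99021 by limma, where 4 of 7 had an unadjusted p under 0.05 (median -0.88). Their summed Cy5 level ran from 62501 to 92667 with CHIR99021, from 47153 to 76991 with VPA, from 20086 to 33369 with both and from 92771 to 143139 in control. Paneth markers fell for 2 of 7 with VPA (median -0.61) and 3 of 7 with both (median -1.40). With CHIR99021 6 of 7 were positive (median 0.45), 0 were called by limma and 3 had an unadjusted p under 0.05. Their summed Cy5 level ran from 111050 to 265117 with CHIR99021, from 34590 to 170867 with VPA, from 41383 to 80660 with both and from 69194 to 226471 in control. Over all genes 1.12% were called with CHIR99021, 10.9% with VPA and 15.6% with both. With CHIR99021 12.8% of all genes had an unadjusted p under 0.05. The part of these cell types in the Gkn3 values was not tested.

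The combination was next set against each compound alone, to see what each added to the other. Adding VPA to CHIR99021 lowered Gkn3 by 2.38 ± 0.11, or 5.2-fold (adjusted p = 0.000546 by limma), and it was the 1 member of 10 called, beside 10% of all genes. In the same comparison 6 of 7 Paneth markers fell (median -2.08), as did 5 of 7 goblet markers (median -1.78) and 2 of 5 enteroendocrine markers (median -2.08), and their part in the Gkn3 value was not tested. Tnfrsf19 read 1.80 ± 0.54 (adjusted p = 0.0881 by limma), 1.08 in line 1 and 2.52 in line 2, and passed with the line as a block (adjusted p = 0.0379). Cdca7 read -0.67 ± 0.21 (adjusted p = 0.103) and Ascl2 -0.32 ± 0.14 (adjusted p = 0.224 by limma). Lgr5 read -0.32 ± 0.35 (adjusted p = 0.637 by limma), with opposite signs in the lines, -0.91 in line 1 and 0.27 in line 2.

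Adding CHIR99021 to VPA gave 0 calls among the members by limma, beside 1.12% of all genes. At an unadjusted p under 0.05 there were 5 of 10 members, beside 14.1% of all genes. The alternatives run also gave 0. Lrig1 read 0.61 ± 0.13 (adjusted p = 0.107), 0.36 in line 1 and 0.87 in line 2. Lgr5 read 0.84 ± 0.35 (adjusted p = 0.349 by limma), 0.14 in line 1 and 1.54 in line 2, and Tnfrsf19 read 1.66 ± 0.54 (adjusted p = 0.234 by limma). Hopx and Cdca7 read 0.50 ± 0.16 and 0.45 ± 0.21 (adjusted p = 0.243 and 0.416 by limma), and Gkn3 -0.27 ± 0.11 (adjusted p = 0.325).

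No interaction of the compounds, a departure of the combination from the sum of the single effects, was called among the members. The term lay between -0.20 (Tnfrsf19) and 0.24 (Lrig1), 0 of 10 members and 0% of all genes were called by limma, and 0 members had an unadjusted p under 0.05, beside 2.65% of all genes. For Tnfrsf19 the value depended on the ratio used: with the scanner software's ratios it was -2.77, at -2.57 in line 1 and -2.98 in line 2. With those ratios, and on the authors' series table, 1 member had an unadjusted p under 0.05 and 0 were called by limma. For Lgr5 it was -0.06 ± 0.49 with a 95% interval of -1.23 to 1.11. The 2 lines gave opposite signs for 10 of 10 members, and for 6 of 10 with the scanner software's ratios, while 46.7% of all genes did.

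With the combination, most members read higher in line 2 than in line 1. Line 2 gave the higher value in 9 of 10 members with both compounds against control, in 10 of 10 against CHIR99021 and in 10 of 10 against VPA, while 51.7%, 53.6% and 52.6% of all genes were higher in line 2. These 3 comparisons share the combination arrays. The median of the members against control was 0.11 in line 1 and 0.42 in line 2 with both, 0.46 and 0.33 with CHIR99021, and -0.08 and -0.22 with VPA. Against VPA it was -0.0038 in line 1 and 0.61 in line 2. With 1 array per line and condition, the difference between lines has no test, and each slide held 1 line, so that line and slide cannot be told apart.

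**Figure D4:**
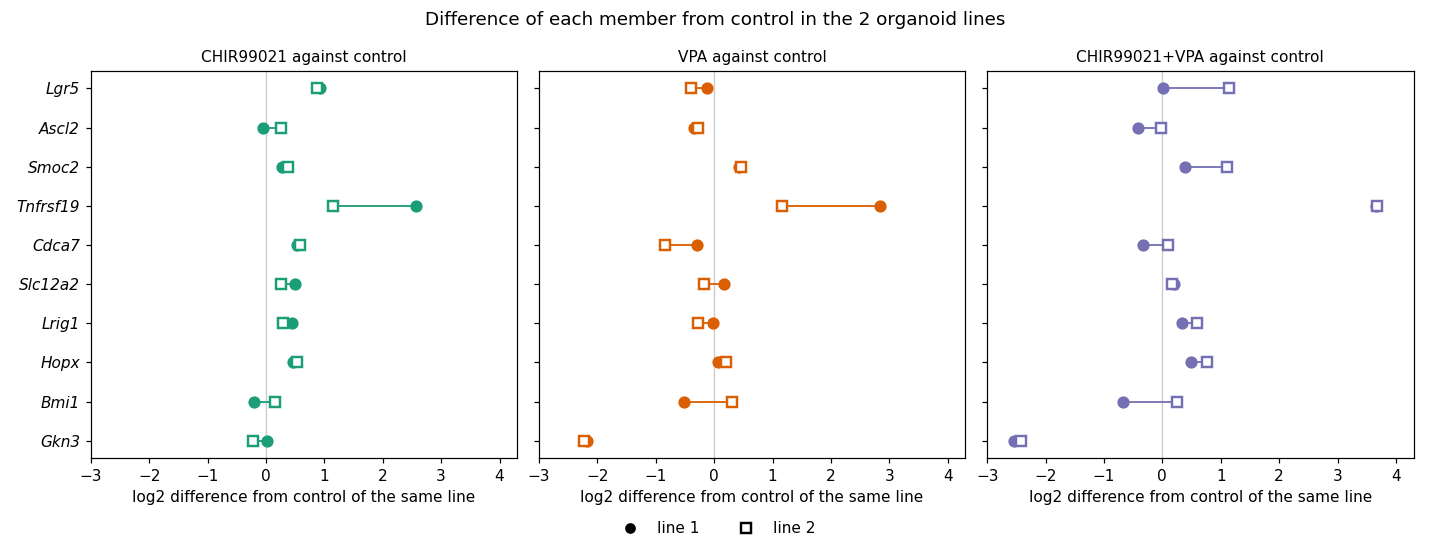
Difference from control of the same line (x axes, log2 units) for each member under CHIR99021, VPA and both compounds, with filled circles for line 1 and open squares for line 2 joined by a bar. Under both compounds Lgr5 lies at 0.01 in line 1 and 1.14 in line 2, while Gkn3 lies at -2.54 in line 1 and -2.42 in line 2. Tnfrsf19 lies at 3.66 and 3.67 on this scale, with a line 2 control that was not well above background.

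Across the 8 arrays, Lrig1 (r = 0.90), Slc12a2 (r = 0.88) and Cdca7 (r = 0.79) had the ratios most like those of Lgr5 among the members, and Bmi1 the least (r = -0.03). These are Pearson correlations over 8 arrays that share 2 slides and their control RNA, and they serve as a description. Among all other tested genes with a symbol, the 5 nearest to Lgr5 were Ccdc15 (r = 0.968), Fam133b (0.962), Ubr7 (0.95), Dclre1b (0.946) and Nup210 (0.939). Their mean ratios spanned smaller ranges than that of Lgr5, for example 0.54 with CHIR99021 and 0.06 in control for Ccdc15. The 5 nearest to Gkn3 were Ptpmt1 (0.995), St7 (0.994), Snx33 (0.993), Dhrsx (0.993) and Cd14 (0.991), all lower with VPA and with both compounds. Cd14, also listed here among immune cell markers, had mean ratios of -0.07 with CHIR99021, -0.96 with VPA, -0.99 with both and -0.08 in control. Of the immune cell markers 3 were tested, and their median differences from control were -0.05 with VPA and -0.03 with both. In each of these comparisons 1 of the 3 was positive and 2 were negative.

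Other genes of the stem cell signature gave a mixed picture like that of the members. Of 25 such genes 23 had a matched probe and 19 were tested. Medians were 0.34 with CHIR99021, 0.06 with VPA and 0.31 with both. With CHIR99021 0 were called by limma, beside 1.12% of all genes, and 9 of 19 had an unadjusted p under 0.05, beside 12.8% of all genes. Soat1, which esterifies cholesterol, read 0.95 ± 0.18 (adjusted p = 0.0795 by limma) and Mex3a, an RNA-binding protein of a slow-cycling Lgr5-positive subset, 0.54 ± 0.12 (adjusted p = 0.123). With both compounds 4 rose and 1 fell, beside 15.6% of all genes called. Soat1 rose by 1.01 ± 0.18 (adjusted p = 0.0142 by limma), Mex3a by 0.71 ± 0.12 (adjusted p = 0.0117), the nuclear receptor Esrrg by 0.57 ± 0.13 and the LDL receptor relative Lrp4, named after its value was seen, by 0.58 ± 0.14, and the zinc finger protein Zbtb38 fell by 0.94 ± 0.16 (adjusted p = 0.0110 by limma). With VPA 1 rose and 2 fell, beside 10.9% of all genes called. Esrrg rose by 0.54 ± 0.13, while Zbtb38 fell by 0.76 ± 0.16 and the growth factor Pdgfa by 0.69 ± 0.16.

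Among genes that act with Lgr5 at the membrane, 6 of 8 were tested. Lgr4, the related R-spondin receptor with wider expression, rose by 0.96 ± 0.12 with VPA (adjusted p = 0.00704 by limma) and by 0.62 ± 0.12 with both (adjusted p = 0.0195), and read -0.04 ± 0.12 with CHIR99021 (adjusted p = 0.955 by limma). Rnf43, the ubiquitin ligase that removes Wnt receptors and is held back by R-spondin, rose by 0.85 ± 0.13 with both (adjusted p = 0.00906 by limma). The combination gave 6 of 6 positive values, but Lgr6 at 0.13 ± 0.14 and Rspo4 at 0.13 ± 0.11 had opposite signs in the lines. Of the 8 listed genes, 4 were above background on all 8 arrays. Their summed Cy5 level ran from 7993 to 10852 with CHIR99021, from 8001 to 12918 with VPA, from 6586 to 12673 with both and from 5725 to 8406 in control. The list's medians were 0.18 with CHIR99021, 0.31 with VPA and 0.32 with both. In these comparisons 0, 1 and 2 of its genes rose and 0 fell, beside 1.12%, 10.9% and 15.6% of all genes called. With CHIR99021 1 of the 6 had an unadjusted p under 0.05, beside 12.8% of all genes.

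Wnt target and feedback genes were tested for 16 of 19 listed. Nkd1, a feedback inhibitor of the pathway, rose by 1.18 ± 0.14 with CHIR99021 (adjusted p = 0.0253 by limma), by 1.00 ± 0.14 with VPA and by 1.46 ± 0.14 with both, measured on its brightest probe. The partners of beta-catenin Tcf7 and Lef1 rose by 1.12 ± 0.14 and 0.84 ± 0.13 with both, and the crypt ephrin receptor Ephb2 rose by 0.78 ± 0.16. In all, 1 rose with CHIR99021, 2 with VPA and 4 with both, and 0 fell, beside 1.12%, 10.9% and 15.6% of all genes called. The medians of the 16 genes were 0.24, 0.38 and 0.36. Lgr5 itself, a gene of the same pathway, read 0.90, -0.26 and 0.58 in these comparisons, without a call.

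Relatives of the members in their own families were tested for 7 of 11. Lrig3, which resembles Lrig1, fell by 1.02 ± 0.12 with CHIR99021 (adjusted p = 0.0212 by limma) and by 1.01 ± 0.12 with both (adjusted p = 0.00324), opposite in sign to the values of Lrig1. Gkn1 and Gkn2, the gastric relatives of Gkn3, were not above background on any array. The enterocyte markers, last, were negative for 10 of 10 genes with CHIR99021 (1 fell, median -1.71, beside 1.12% of all genes called). With both they were negative for 10 of 10 (4 fell, median -1.77, beside 15.6%), and with VPA for 6 of 10 (1 fell, median -0.23, beside 10.9%). Their summed Cy5 level ran from 115388 to 127156 with CHIR99021, from 270542 to 288844 with VPA, from 84263 to 106019 with both and from 262322 to 276872 in control, and their part in the values of the members was not tested.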

How the data were processed

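Cy5-labelled cRNA of 8 organoid samples was hybridised against Cy3-labelled cRNA of control organoids on Agilent arrays covering the mouse genome, as the labels describe. The file headers name Agilent Feature Extraction 10.5.1.1 and build mm9. The deposited intensity values are median pixel brightnesses of spot and local background, with nothing subtracted. The deposited log10 values were made by the scanner software, per the file headers, as the background-corrected and dye-normalised ratio of Cy5 over Cy3. Deposited flags of 0 or 1 per spot record whether its signal stood well above background and whether it was saturated or an outlier. The authors' deposited log2 table matched those scanner ratios within 5e-10 for 19228 values, which settles its scale and direction and shows no centring. Its column medians were 0.0169 (CHIR99021), -0.0284 (VPA), -0.00804 (both) and 0.00393 (control) in line 1, and 0.0361, -0.0239, -0.00265 and 0.00566 in line 2, and 0 columns were unmatched.

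Signals were corrected in limma 3.58.1 (R 4.3.3) by normexp (offset 50, fitted without outlier spots), followed by loess inside every array, with controls at weight 0. Spots of a probe were averaged. A gene was kept if 1 or more groups had Cy5 well above background on 2 of 2 arrays. Of 19319 such genes, 79 were dropped for a marked spot and 19240 tested, 13959 of them with a symbol from a RefSeq table of GRCm38.p6, to which 27479 of 41174 probes matched. All 8 arrays entered lmFit and eBayes as 4 groups, with 4 residual and 2.69 prior degrees of freedom, and p-values were adjusted over all genes for each of 6 contrasts. Only the limma fit was tested on simulated data, drawn as ratios that were independent between arrays. The steps before the fit were not tested in this way. Summed list levels are linear Cy5 signals after Aquantile scaling.

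Replicate numbers stand for organoid lines in the labels. Deviations of same-line arrays from their group means correlated at 0.123 to 0.754 over the 6 pairs of groups, and at 0.123 to 0.246 in pairs with control. Arrays of a line also share a slide and their Cy3 control RNA, so these correlations cannot show a pairing by line alone. A fit blocked by line was tried. The members, lists and tests were chosen with earlier results of these data known, as was the fit of normexp without outlier spots. Genes named beside the members are the 5 most correlated with Lgr5 and with Gkn3 and up to 4 called genes of each list and contrast, and exceptions are marked.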

Additional observations from a re-analysis of the deposited data

How the results depend on the processing

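Counts of called members moved with several settings. For CHIR99021 against control (0 called) they were 1 on the authors' series table, 2 with only the groups compared and 1 with ratios tested against 0. For VPA against control (1 called) they were 2 with normexp fitted on all spots, the scanner software's log ratio, the series table, median centring or the line as a replicate block, and 5 against 0, and ran from 1 to 2 with 1 array left out. For the combination against control (3 called) they were 5 with the replicate block, 6 against 0, 4 on the series table, and 2 with normexp on all spots, the scanner's ratio, median centring, no filter on dim probes or only the groups compared, and ran from 1 to 4 with 1 array left out, at 1 without either control array. Against CHIR99021 (1 called) they were 2 with normexp on all spots and with the block, and ran from 1 to 2. Counts against VPA and for the interaction were 0 under all settings run. Beside the calls of Tnfrsf19, Smoc2 and Lrig1 given above, the block changed no other member's. Counts over all genes moved as well. On the series table, with 13669 genes tested, CHIR99021 called 209, VPA 2190 and the combination 3083 against control. Normexp on all spots gave the line 1 CHIR99021 array a noise SD of 192 in Cy5 and 905 in Cy3. Without outlier spots these were 1.14 and 1.02. CHIR99021 called 216, against 0 with normexp on all spots, 36 with the scanner's ratio, 557 with the block, 1088 with only the groups compared, 2569 against 0, and 1 without either control array or the line 2 CHIR99021 array. VPA called 2091, against 1129 with median centring, 3753 with the block, 5489 against 0, and 120 and 127 without the line 1 and line 2 control. The combination called 2993, against 4815 with the block, 6363 against 0, and 546 and 605 without the line 1 and line 2 control. Against CHIR99021 it called 1930, with 1156 under median centring, 3425 under the block, 292 with only the groups compared and 289 to 2059 with 1 array left out. Against VPA it called 215, with 28 and 34 under normexp on all spots and the scanner's ratio, 613 under the block, 0 with only the groups compared and 7 to 172 with 1 array left out, at 7 without either control array.

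Some values changed sign. Those against 0 are mean ratios of the treated arrays with no control subtracted. Control itself read -0.50 for Slc12a2 and 0.34 for Gkn3. The cause of the other changes of sign was not tested. With CHIR99021, Bmi1 read 0.019 with normexp on all spots, 0.068 with the scanner software's ratio and on the series table, 0.039 with the mean of its probes and 0.0066 against 0; Gkn3 read 0.010 with normexp on all spots and 0.24 against 0; Slc12a2 read -0.12 against 0. With VPA, Slc12a2 read -0.00073 with the scanner's ratio and on the series table and -0.50 against 0, and with both -0.31 against 0. With 1 array left out, CHIR99021 values ranged from -0.062 to 0.27 (Ascl2), -0.12 to 0.073 (Bmi1) and -0.22 to 0.020 (Gkn3); VPA values from -0.64 to 0.12 (Lgr5), -0.11 to 0.12 (Slc12a2) and -0.41 to 0.22 (Bmi1). Combination values ranged from -0.37 to 0.15 (Cdca7) and -0.58 to 0.15 (Bmi1), against CHIR99021 from -0.64 to 0.0027 (Lgr5), -0.039 to 0.22 (Lrig1), -0.073 to 0.33 (Hopx) and -0.55 to 0.18 (Bmi1), and against VPA from -0.036 to 0.23 (Ascl2), -0.061 to 0.66 (Smoc2) and -0.48 to 0.25 (Bmi1). Where 1 array is left out, the lone sample is assumed to vary like the other groups. Signal over background limits Tnfrsf19, which is dim in control. Values per line and interactions from the scanner software's ratios were added after seeing the data.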
